A study of Sus scrofa with 36 samples.

Results

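The proteasome genes of newborn pig hearts were described here across infarcted and uninfarcted left ventricle. The members were all genes of the deposited count table whose symbol starts with PSMA, PSMB, PSMC, PSMD or PSME, the standard names of proteasome subunits and activators. These were 41 of 25880 genes, of which 39 passed a filter on low counts and were tested. PSMA8, a subunit of testis proteasomes, had 2 counts in all 36 libraries together, and PSMB11, a catalytic subunit of thymus epithelium, had 5 counts, and neither was tested. PSMC3IP, which acts in meiotic recombination, and PSME3IP1, which binds PSME3, share the prefix but are no proteasome subunits. PSMA6, PSMB5, PSMB6 and PSMD2 were not analysed here, because no identifier of the table carried their symbol.

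The series is bulk polyA RNA-seq of Yorkshire-landrace pigs with permanently ligated coronary branches and of sham-operated pigs. Infarcted pigs gave a sample from the infarct zone (IZ) and one from the border zone (BZ) of the same heart, and sham pigs gave the anterior wall of the left ventricle (Sham). Old pigs had surgery at 14 days of age and Young pigs at 2 days, and hearts were taken 1 week (Late) or 1 day (Early) after surgery. The Old Late pigs were thus 21 days old at harvest, the Young Late pigs 9 days, the Old Early pigs 15 days and the Young Early pigs 3 days. Each of the 4 conditions had 3 IZ, 3 BZ and 3 Sham libraries, from 24 pigs in all. Per the labels, every animal received analgesia with ketoprofen and the antibiotic enrofloxacin after surgery. The Sham samples are wall of other animals, so IZ and BZ differ from Sham in pig as well as in tissue.

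The proteasome is the main protease of cytosol and nucleus and breaks down proteins tagged with ubiquitin. Its 20S core is a barrel of alpha rings, which gate entry, around beta rings, which hold the catalytic sites. The 19S cap unfolds substrates with a ring of ATPases, the base, and removes ubiquitin with a lid. Interferon-gamma induces PSMB8, PSMB9 and PSMB10, which take the places of PSMB5, PSMB6 and PSMB7 in newly built cores to form the immunoproteasome, and PSME1 and PSME2, which form the activator PA28 and favour the making of peptides for MHC class I. In heart muscle the ubiquitin-proteasome system turns over contractile proteins and damaged proteins.

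Library totals lay between 8113200 and 39789874 counts, and the member genes held 0.199 to 0.44% of them. One library stood apart. Young Early BZ replicate 2 had a TMM factor of 0.578 and was the highest of all 36 libraries for 21 of the 39 tested members, so results in Young Early BZ are also given without it. Young Late Sham replicate 2, the shallowest library, was the lowest of all for 8 members, and Old Late IZ replicate 2 for 10. All Old Late libraries came from preparation batch 3, all Old Early libraries from batch 2 and all Young Early libraries from batch 1, so age and time comparisons cannot be told apart from batch, except that Young Late libraries were spread over batches 1 and 2. Levels below are in CPM, the share of a library's counts on a common scale, after TMM scaling.

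Few proteasome genes differed between IZ and Sham in 3 of the 4 conditions. A member is called where edgeR's quasi-likelihood test gave a Benjamini-Hochberg adjusted p under 0.05 over all 14537 genes tested. In Old Late IZ against Sham 3 of 39 members were called (1 higher and 2 lower, 7.69%), while 49.1% of all genes were called (25.1% higher and 24% lower). In Young Late IZ 14 members were called (13 higher and 1 lower, 35.9%), beside 30.2% of all genes (17.2% higher and 13% lower). In Old Early IZ 5 were called (4 higher and 1 lower, 12.8%), beside 34.3% of all genes (19.5% higher and 14.8% lower). In Young Early IZ 6 were called (5 higher and 1 lower, 15.4%), beside 27.2% of all genes (15.2% higher and 12% lower). The share of members called higher or lower was thus below that of all genes in every IZ comparison but Young Late. There the 35.9% of members was near the 30.2% of all genes, but the directions differed. The share of members called higher in Young Late IZ, 13 of 39, was above the 17.2% of all genes. The share called lower, 1 of 39, was below the 13% of all genes. Across the 4 IZ comparisons the median log2 fold change of the members was 0.02 in Old Late, 0.36 in Young Late, 0.24 in Old Early and 0.06 in Young Early hearts. Over all genes tested the medians were -0.04 in Old Late, 0.03 in Young Late, 0.0 in Old Early and 0.08 in Young Early hearts. Single libraries moved these counts. The Young Late IZ count was 8 without IZ replicate 2 or without Sham replicate 2, and 9 without IZ replicate 1 or without Sham replicate 3. The Old Early IZ count was 2 without Sham replicate 1, Sham replicate 3 or IZ replicate 1, and 3 without Sham replicate 2 or IZ replicate 3. The Young Early IZ count was 3 without Sham replicate 1, Sham replicate 3 or IZ replicate 3. The Old Late IZ count was 1 without IZ replicate 1 or IZ replicate 3.

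**Figure D1:**
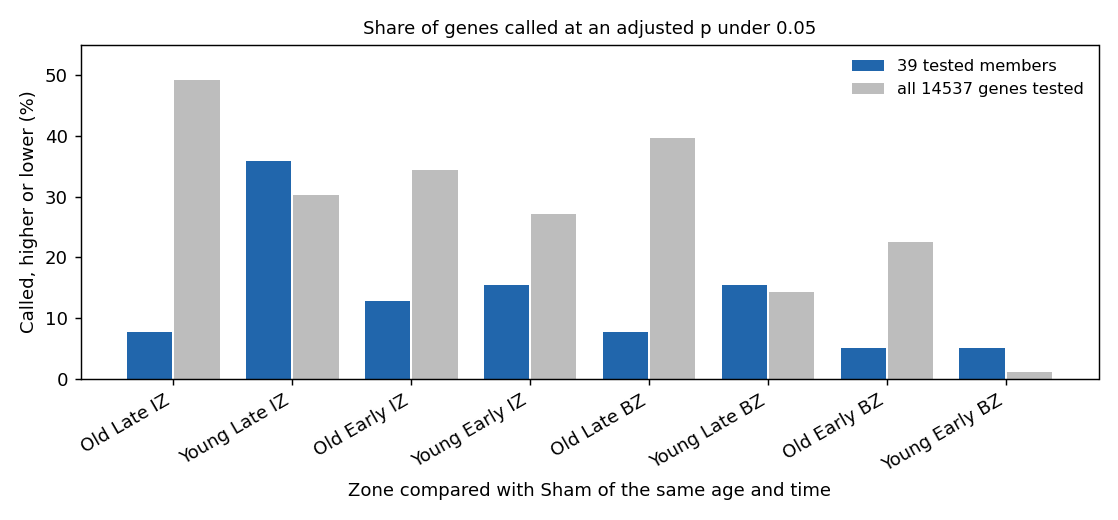
Bars give the percent of genes called higher or lower against Sham of the same age and time (y axis), for the 39 tested members in blue and for all 14537 genes tested in grey, in the 4 IZ and 4 BZ comparisons (x axis). The blue bar is 7.69% beside a grey bar of 49.1% in Old Late IZ, and 35.9% beside 30.2% in Young Late IZ.

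The border zone had fewer calls. In Old Late BZ against Sham 3 of 39 members were called (PSME2 and PSMD10 higher and PSME4 lower, 7.69%), beside 39.7% of all genes. In Young Late BZ 6 were called, all higher (15.4%), beside 14.2% of all genes (8.25% higher). In Old Early BZ 2 were called (PSMD10 higher and PSME4 lower, 5.13%), beside 22.5% of all genes. In Young Early BZ 2 were called, both higher (5.13%), beside 1.11% of all genes (0.784% higher). IZ and BZ comparisons share their Sham libraries. The Young Late BZ count was 0 without Sham replicate 2, 1 without BZ replicate 2 and 2 without BZ replicate 3. The Young Early BZ count was 0 without Sham replicate 1 or Sham replicate 3, 1 without Sham replicate 2 and 8 without BZ replicate 1. Without BZ replicate 2, the library that stands apart, it was again 2, but with PSMD5 (0.92, adjusted p = 0.0415) and PSMD9 (-0.66, adjusted p = 0.0454) in place of PSMA4 and PSMA5. The Old Late BZ count was 0 to 2 without any 1 of its libraries, and the Old Early BZ count was 1 without Sham replicate 2, Sham replicate 3 or BZ replicate 1. Of the 39 tested members, 18 were called in no comparison of a zone with Sham: PSMA7, PSMB1, PSMB2, PSMB3, PSMB7, PSMC2 to PSMC6, PSMD1, PSMD4, PSMD5, PSMD7, PSMD12, PSMD13, PSME1 and PSME3IP1, with log2 fold changes between -0.59 and 1.07. The share of all genes called in no such comparison was not counted, so whether 18 of 39 is many or few is not known.

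**Figure D2:**
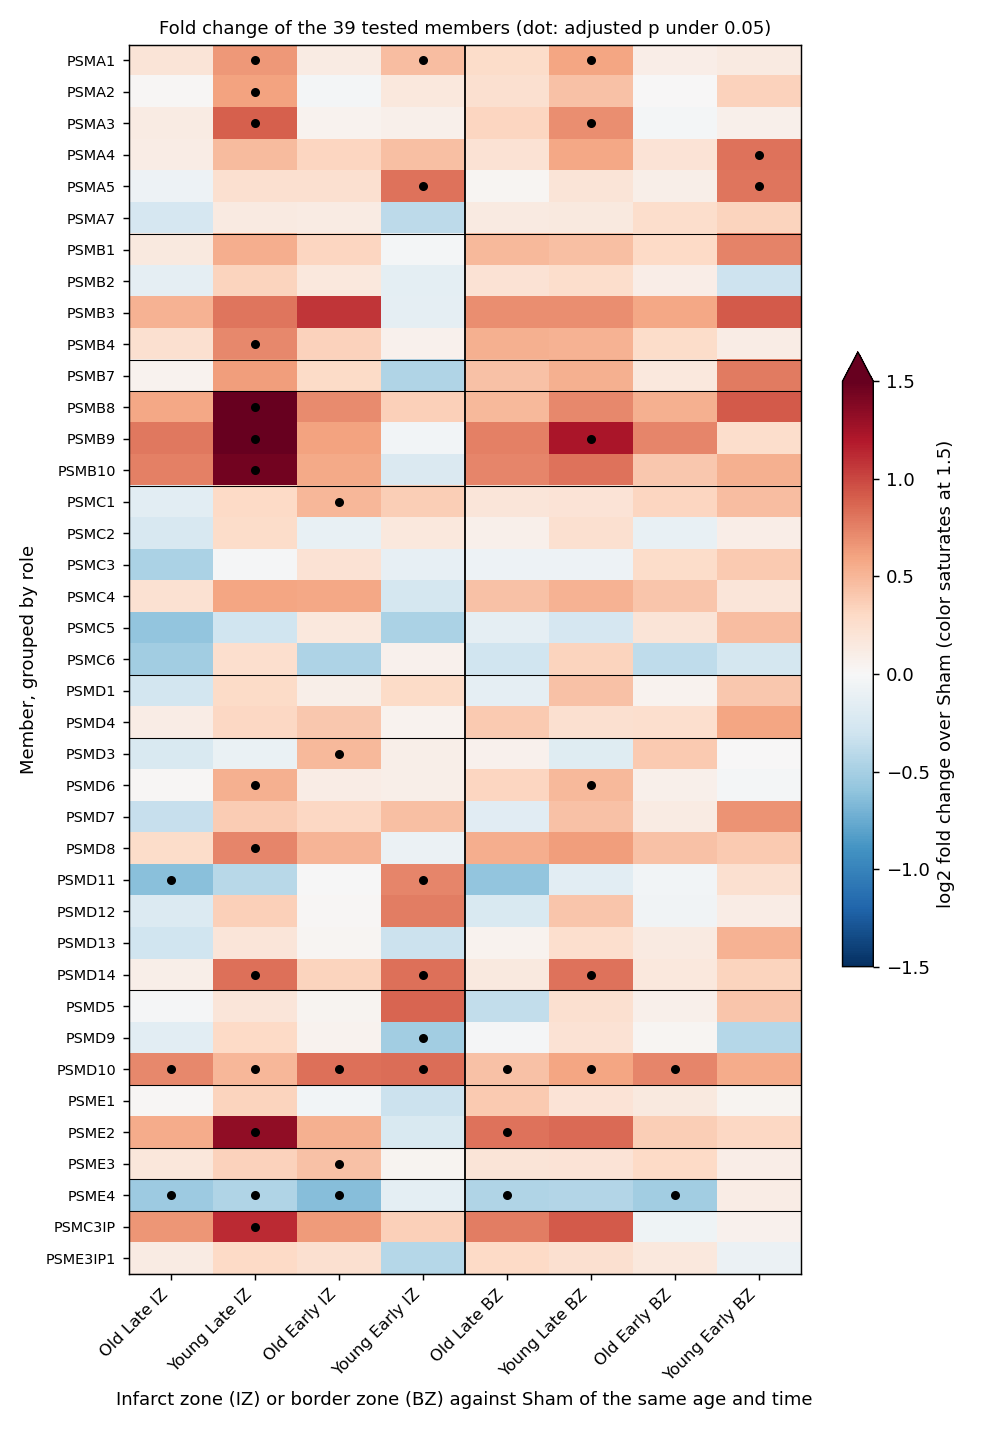
Each cell gives the log2 fold change of IZ or BZ over Sham of the same age and time (color, saturating at 1.5 on either side) for the 39 tested members (y axis, grouped by role) in 8 comparisons (x axis), with a dot where the adjusted p is under 0.05. Dots are densest in the Young Late IZ column, with 14, and the PSMD10 line carries 7.

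The mean level of the 32 constitutive subunits and cofactors, on the log2(CPM + 0.5) scale, lay above Sham in both zones of Young Late and Old Early hearts. It was 5.71 ± 0.15 in Old Late IZ, 5.91 ± 0.12 in Old Late BZ and 5.79 ± 0.05 in Old Late Sham hearts, with overlapping libraries (SD, n = 3 each). It was 6.27 ± 0.01 in Young Late IZ, 6.24 ± 0.03 in Young Late BZ and 5.91 ± 0.14 in Young Late Sham hearts, where every IZ and BZ library lay above every Sham library. It was 6.17 ± 0.06, 6.10 ± 0.09 and 5.96 ± 0.04 in Old Early IZ, BZ and Sham hearts, again with no overlap with Sham. In Young Early hearts it was 6.37 ± 0.12, 6.40 ± 0.37 and 6.24 ± 0.09 in IZ, BZ and Sham, with overlap. Without BZ replicate 2 the Young Early BZ mean was 6.20 (n = 2), below that of Sham. No p was computed for these means over members.

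**Figure D3:**
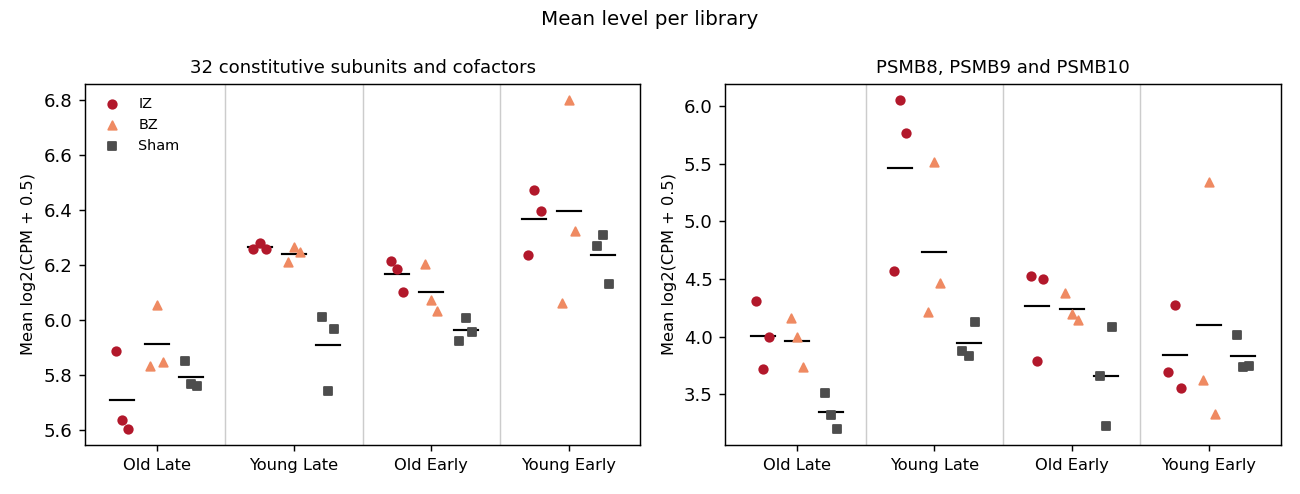
Mean log2(CPM + 0.5) per library (y axis) of the 32 constitutive subunits and cofactors (left) and of PSMB8, PSMB9 and PSMB10 (right), by age and time (x axis), with IZ, BZ and Sham libraries as symbols and the group mean as a bar. The immunoproteasome mean is 5.46 in Young Late IZ against 3.94 in Young Late Sham hearts, and the constitutive mean is 6.27 against 5.91.

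PSMB9, PSMB8 and PSMB10, the inducible catalytic subunits of the immunoproteasome, rose together in Young Late IZ and had the largest folds of all members there. PSMB9 had 12.5, 37.6 and 28.2 CPM in Young Late IZ, against 6.15, 5.60 and 6.59 CPM in Young Late Sham libraries. Every IZ library lay above every Sham library, and IZ replicate 1 was far below the others. The log2 fold change was 2.08 ± 0.41 (SE), a 4.23-fold difference with an adjusted p of 0.000404. PSMB8 had 24.8, 60.4 and 46.3 CPM in Young Late IZ, against 13.8, 13.2 and 19.3 CPM in Sham, with no overlap and a log2 fold change of 1.5 ± 0.43 (adjusted p = 0.00905). PSMB10 had 40.2, 125.9 and 118.9 CPM in Young Late IZ, against 33.0, 33.9 and 37.3 CPM in Sham. Its IZ replicate 1 was only just above Sham, and its log2 fold change was 1.45 ± 0.44 (adjusted p = 0.0123). Without Young Late IZ replicate 2 the calls of PSMB8 (log2 fold change 1.2, adjusted p = 0.0566) and PSMB10 (1.19, adjusted p = 0.0627) were lost, while PSMB9 was called under all 14 alternatives.

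The size of these differences was not the same in the 2 preparation batches of the Young Late libraries. Within batch 2, with 2 IZ and 2 Sham libraries, mean CPM in IZ was 5.16 times that in Sham for PSMB9, 3.22 times for PSMB8 and 3.48 times for PSMB10. Within batch 1, with 1 library each, the ratios were 2.23, 1.88 and 1.19. IZ replicate 1 is the only IZ library of batch 1, so among IZ libraries batch and that pig cannot be told apart. The BZ library of that pig came from batch 2, with 8.17, 17.1 and 41.1 CPM of PSMB9, PSMB8 and PSMB10. BZ replicate 2, also of batch 2, had 23.6, 39.6 and 99.3 CPM. BZ replicate 3, of batch 1, had 11.5, 20.15 and 43.2 CPM, beside 28.2, 46.3 and 118.9 CPM in IZ replicate 3 of the same pig, from batch 2.

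In the other conditions none of the 3 immunoproteasome genes was called in IZ. PSMB9 had 9.46, 6.22 and 7.18 CPM in Old Late IZ, against 4.78, 4.62 and 3.76 CPM in Old Late Sham libraries. These groups did not overlap, and the log2 fold change was 0.79 ± 0.40 (adjusted p = 0.102). In the same hearts PSMB10 had 34.0, 18.3 and 23.1 CPM in IZ, against 17.0, 13.9 and 13.8 CPM in Sham (log2 fold change 0.75, adjusted p = 0.151), and PSMB8 had 22.1, 17.5 and 21.8 CPM in IZ, against 15.5, 13.1 and 12.3 CPM in Sham (0.59, adjusted p = 0.252). All 3 were above Sham in every Old Late IZ library without passing the test. In this comparison 25.1% of all genes were called higher, and the share of all genes without overlap was not counted. In Old Early IZ the log2 fold changes were 0.71 for PSMB8, 0.60 for PSMB9 and 0.57 for PSMB10, with adjusted p of 0.187, 0.249 and 0.314 and overlapping libraries. In Young Early IZ they were 0.35, -0.05 and -0.21 (adjusted p of 0.561, 0.947 and 0.745), also with overlap.

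In the border zone the only call among these genes was PSMB9 in Young Late hearts. It had 8.17, 23.6 and 11.5 CPM in Young Late BZ, against 6.15, 5.60 and 6.59 CPM in Sham, with no overlap and with BZ replicate 2 highest (log2 fold change 1.22 ± 0.41, adjusted p = 0.0432). The call was lost without BZ replicate 2 (0.69), without BZ replicate 3 (1.37) and without Sham replicate 1, 2 or 3 (1.23, 1.18 and 1.28). It was also lost with RNA integrity as a covariate (1.14, adjusted p = 0.0713), and in a limma-voom fit that took the pig as a random block, since IZ and BZ come from the same pigs (1.03, adjusted p = 0.117). PSMB8 had 15.0, 54.0 and 11.1 CPM in Young Early BZ, against 16.7, 13.0 and 12.5 CPM in Young Early Sham libraries. Only BZ replicate 2, the library that stands apart, was above the Sham range. Without it the log2 fold changes in Young Early BZ were -0.10 for PSMB8, -0.42 for PSMB9 and -0.60 for PSMB10, against 0.92, 0.26 and 0.54 with it, none of them called.

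**Figure D4:**
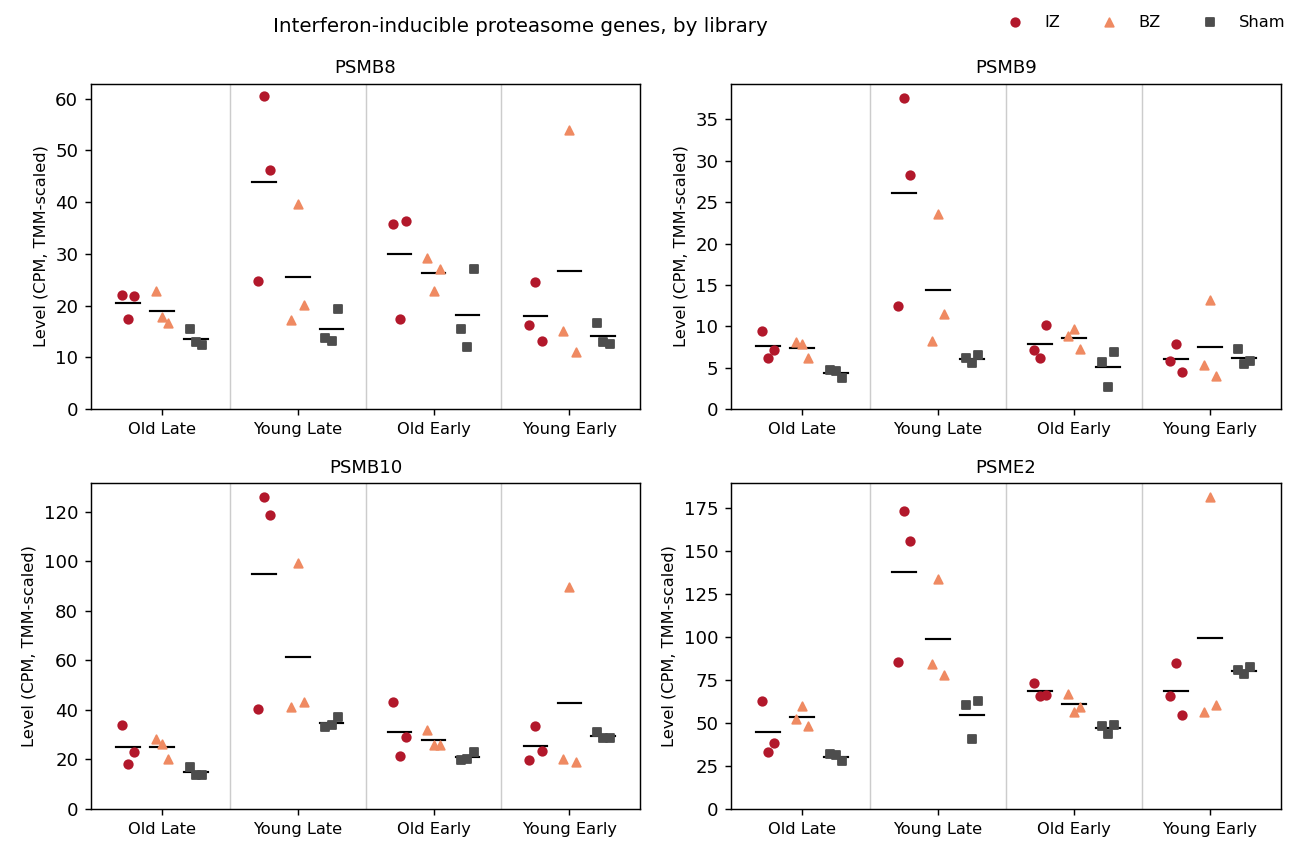
Level in TMM-scaled CPM (y axis) of PSMB8, PSMB9, PSMB10 and PSME2 in each of the 36 libraries, by age and time (x axis), with IZ, BZ and Sham as symbols and group means as bars. PSMB9 in Young Late IZ spans 12.5 to 37.6 CPM, above the Sham range of 5.60 to 6.59 CPM, and the single high Young Early BZ point in each panel is replicate 2.

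The genes of PSMB8 and PSMB9 lie next to each other on chromosome 7, from 25053132 to 25073046 on the minus strand and from 25071712 to 25077233 on the plus strand, while PSMB10 lies on chromosome 6 from 28540808 to 28548152, in the files' coordinates, whose build is not given in the sources used here. PSMB9 shares 24.6% of its annotated exon bases with TAP1 on the opposite strand, PSMB10 shares 49.1% with PSKH1, and PSMB8 shares none. Of the 41 members, 21 share exon bases with another gene. The strand setting of the counting is not given in the sources used here, so reads of such pairs may not be told apart.

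PSME2, a subunit of the PA28 activator, was also called higher in Young Late IZ, and PSME1, its partner, did not pass the test in any zone. PSME2 had 85.4, 172.8 and 155.5 CPM in Young Late IZ, against 60.5, 40.4 and 62.9 CPM in Sham, with no overlap and IZ replicate 1 again lowest. Its log2 fold change was 1.33 ± 0.32 (adjusted p = 0.00226), called under all 14 alternatives, and its ratio of mean CPM was 2.66 within batch 2 and 2.11 within batch 1. PSME1 had 114.3, 162.0 and 150.4 CPM in Young Late IZ, against 127.2, 94.7 and 115.4 CPM in Sham, which overlapped (0.34 ± 0.19, adjusted p = 0.177). In Old Late hearts PSME2 rose in BZ, with 52.1, 59.7 and 48.1 CPM against 31.7, 31.1 and 28.1 CPM in Sham (0.81 ± 0.32, adjusted p = 0.0406). That call was lost without BZ replicate 1 (0.83), BZ replicate 2 (0.72) or Sham replicate 1, 2 or 3 (0.85, 0.83 and 0.76), and with RNA integrity as a covariate (0.56, adjusted p = 0.244), which was 6.8 to 7.8 in Old Late BZ and 7.8 to 8.4 in Old Late Sham libraries. In Young Late BZ PSME2 was not called (0.85, adjusted p = 0.0694), though it was with preparation batch as a term (0.86, adjusted p = 0.0454). In Old Late IZ PSME2 had 62.6, 33.1 and 38.2 CPM, all above Sham, and was not called (0.56, adjusted p = 0.143), though it was without IZ replicate 2 (0.79, adjusted p = 0.0487). PSME2 shares 57.2% of its exon bases with RNF31, and PSME1 shares 40.8% with FITM1.

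PSMB10 was set against PSMB7, the constitutive subunit with trypsin-like activity whose place it takes. PSMB7 had 181.6, 220.0 and 196.1 CPM in Young Late IZ, against 164.4, 95.2 and 127.4 CPM in Sham, with no overlap (log2 fold change 0.63 ± 0.41, adjusted p = 0.255), and it was not called in any zone. Per kilobase of exon, PSMB7 averaged 185.3 ± 18 CPM in Young Late IZ and 120.0 ± 32.2 CPM in Sham, while PSMB10 averaged 17.3 ± 8.65 CPM in IZ and 6.32 ± 0.416 CPM in Sham, PSMB8 20.2 ± 8.28 and 7.13 ± 1.54 CPM, and PSMB9 19.6 ± 9.51 and 4.59 ± 0.373 CPM (SD, n = 3 each). Per kilobase, the inducible genes thus stayed below PSMB7 in Young Late IZ. For PSMB10 the size of this gap depends on the annotated exon length, 5501 bases against 1075 for PSMB7. In CPM, without regard to length, its log2 ratio to PSMB7 was -2.18, -0.80 and -0.72 in the Young Late IZ libraries. The log2 ratio of PSMB10 to PSMB7 averaged -1.97 in the 12 IZ libraries and -2.44 in the 12 Sham libraries, a 1.38-fold difference (exact permutation test within conditions, two-sided p = 0.00513, adjusted over 3 tests 0.0132). In 10 of 12 IZ libraries it was above every Sham library of the same condition. These include every Young Early IZ library, where PSMB10 itself was not higher (log2 fold change -0.21). There PSMB7 had 125.3, 234.9 and 125.0 CPM in IZ, against 238.4, 215.5 and 211.7 CPM in Sham. Over the mean of the other 20S subunits, PSMB10 averaged -2.09 in Young Early IZ and -1.78 in Sham. Within pigs the ratio of PSMB10 to PSMB7 was -1.97 in IZ and -2.29 in BZ, higher in IZ in 10 of 12 pigs (exact sign-flip permutation test, two-sided p = 0.00879, adjusted 0.0132). BZ, at -2.29, was not separated from Sham, at -2.44 (exact permutation test, p = 0.269, adjusted 0.269). Without Young Early BZ replicate 2 the differences were 0.31 for IZ against BZ (exact permutation test, adjusted p = 0.0264) and 0.18 for BZ against Sham (adjusted p = 0.168). The labels name 2 different pigs for Old Late BZ replicate 3, and with that pair left out IZ was above BZ by 0.31 and in 9 of 11 pigs (exact sign-flip permutation test, adjusted p = 0.0264). With the mean of the other 20S subunits in place of PSMB7, the differences were 0.33 for IZ against Sham and 0.14 for IZ against BZ, and neither passed.

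Outside the interferon-inducible genes, the core subunits rose in Young Late hearts in part. Of the 6 tested alpha ring genes PSMA1, PSMA2 and PSMA3 were called higher in Young Late IZ. PSMA3 had 92.6, 113.5 and 110.7 CPM in Young Late IZ and 82.9, 106.6 and 85.9 CPM in Young Late BZ, against 53.1, 46.8 and 70.3 CPM in Sham. Neither zone overlapped Sham. The log2 fold changes were 0.89 ± 0.17 in IZ (adjusted p = 0.000295) and 0.69 in BZ (adjusted p = 0.00797), and the BZ call was lost without BZ replicate 2 or Sham replicate 2 (0.58 in both). Mean CPM of PSMA3 in IZ was 1.82 times that in Sham within batch 2 and 1.98 times within batch 1. PSMA1 had 65.2, 61.6 and 57.9 CPM in Young Late IZ, against 38.7, 34.7 and 44.3 CPM in Sham (0.65 ± 0.16, adjusted p = 0.00323). Its BZ call (0.59, adjusted p = 0.0153) was lost without BZ replicate 2 (0.59), BZ replicate 3 (0.51) or Sham replicate 2 (0.51). PSMA1 and PSMA3 were called in Young Late IZ under all 14 alternatives, and PSMA2 (0.60, adjusted p = 0.0118) was lost without Sham replicate 2 (0.54, adjusted p = 0.0555). In Old Late IZ no alpha ring gene was called (median log2 fold change 0.06), where PSMA3 was at 0.12 (adjusted p = 0.587).

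In Young Early hearts the alpha ring calls were other genes in part. PSMA5 had 38.3, 49.9 and 52.2 CPM in Young Early IZ, against 26.2, 30.6 and 22.8 CPM in Sham, with no overlap (0.82 ± 0.18, adjusted p = 0.00162), and kept its call under all alternatives. PSMA1 was also called (0.47, adjusted p = 0.0311), but not without Sham replicate 1 (0.41), Sham replicate 3 (0.43) or IZ replicate 3 (0.31), nor with RNA integrity as a covariate (0.42, adjusted p = 0.0804). In Young Early BZ PSMA4 (0.81, adjusted p = 0.0457) and PSMA5 (0.80, adjusted p = 0.0306) were called, and lost the call without BZ replicate 2 (0.33 for PSMA4 and 0.50 for PSMA5), Sham replicate 1 (0.89 and 0.80) or Sham replicate 3 (0.67 and 0.70), and PSMA4 also without Sham replicate 2 (0.88). Both were lost without the count filter (adjusted p = 0.0728 for PSMA4 and 0.0506 for PSMA5), with RNA integrity as a covariate (0.173 and 0.132) and in a limma-voom fit that took the pig as a random block (0.121 and 0.0699), and PSMA4 with DESeq2 size factors (0.0511). Of the 4 structural beta subunits PSMB4 alone was called, in Young Late IZ (0.72, adjusted p = 0.0200), and this call was lost without IZ replicate 1 (0.67), IZ replicate 2 (0.66), Sham replicate 2 (0.74) or Sham replicate 3 (0.59). PSMB3 had the widest spread of this role, with 147.3, 62.9 and 76.7 CPM in Old Early IZ, against 43.9, 50.6 and 41.8 CPM in Sham (1.07 ± 0.45, adjusted p = 0.0625), not called though no library overlapped.

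The 6 ATPases of the 19S base, PSMC1 to PSMC6, were mostly not called. In Old Late IZ none was called and 1 of 6 had a positive log2 fold change. The median there was -0.36, against -0.04 over all genes. PSMC5 had 138.6, 80.9 and 95.1 CPM in Old Late IZ, against 161.1, 154.2 and 159.7 CPM in Sham (-0.59, adjusted p = 0.139), with no overlap. In Young Late IZ none was called and the median was 0.26. The base also holds PSMD1, a scaffold, which had 58.5, 64.8 and 59.3 CPM in Old Late IZ, against 74.0, 77.0 and 70.7 CPM in Sham (-0.28, adjusted p = 0.229), and PSMD4, a ubiquitin receptor, at 0.11 there (adjusted p = 0.771). In Old Early IZ PSMC1 was called higher, with 107.9, 91.2 and 88.3 CPM against 67.5, 70.9 and 64.6 CPM in Sham (0.50, adjusted p = 0.0413). That call was lost without Sham replicate 1, 2 or 3 (0.50, 0.54 and 0.47), IZ replicate 1 (0.41) or IZ replicate 3 (0.56), without the count filter (adjusted p = 0.0613) and with RNA integrity as a covariate (adjusted p = 0.0833).

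In the lid, PSMD14, the deubiquitinase that cuts ubiquitin chains off substrates, was called higher in both zones of Young Late hearts and in Young Early IZ. It had 44.6, 37.0 and 42.5 CPM in Young Late IZ and 38, 39.9 and 45.4 CPM in Young Late BZ, against 26.1, 17.2 and 26.6 CPM in Sham. No library of either zone overlapped Sham, with log2 fold changes of 0.82 ± 0.21 in IZ (adjusted p = 0.00403) and 0.81 in BZ (adjusted p = 0.0108). The BZ call was lost without BZ replicate 3 (0.74) or Sham replicate 2 (0.64). Mean CPM of PSMD14 in IZ was 1.51 times that in Sham within batch 2 and 2.59 times within batch 1. In Young Early IZ it had 45, 42.3 and 51.1 CPM, against 22.9, 36.1 and 19.3 CPM in Sham (0.82 ± 0.21, adjusted p = 0.00499). Both IZ calls held under all 14 alternatives. In Old hearts it was not called in any zone, with 0.09 in Old Late IZ and 0.33 in Old Early IZ. PSMD6, another lid subunit, was called in Young Late IZ under all alternatives (0.53 ± 0.14, adjusted p = 0.00527), and in Young Late BZ (0.48, adjusted p = 0.0218) except without BZ replicate 2 (0.48), BZ replicate 3 (0.44) or Sham replicate 2 (0.38). PSMD8, a lid subunit with 170.4, 169.2 and 165.6 CPM in Young Late IZ, against 129.7, 74.0 and 100.3 CPM in Sham, was called (0.73, adjusted p = 0.0459), but in 9 of 14 alternatives was not, among them without any library but Sham replicate 1 (0.55 to 0.74). PSMD3, also of the lid, was called in Old Early IZ (0.49, adjusted p = 0.0401), except without Sham replicate 1, 2 or 3 (0.54, 0.45 and 0.48) or IZ replicate 1 (0.37), without the count filter (adjusted p = 0.0588) or with RNA integrity as a covariate (adjusted p = 0.0755). PSMC3IP, no subunit, was called in Young Late IZ (1.12, adjusted p = 0.0268), except without IZ replicate 1 or 2 (1.09 in both), Sham replicate 2 (1.02) or Sham replicate 3 (0.77).

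PSMD11, a scaffold subunit of the lid, was called in opposite directions in different conditions. It had 17.4, 28.3 and 23.7 CPM in Old Late IZ, against 37.6, 33.9 and 35.5 CPM in Sham, with no overlap (-0.63 ± 0.26, adjusted p = 0.0486). This call was lost in 13 of 14 alternatives, among them without any 1 of the 6 libraries (-0.73 to -0.37) and with RNA integrity as a covariate (-0.33, adjusted p = 0.326). It had 34.4, 24.9 and 42.0 CPM in Young Early IZ, against 21.2, 24.0 and 15.7 CPM in Sham (0.73, adjusted p = 0.0386). That call was lost without Sham replicate 1 (0.77), Sham replicate 3 (0.58), IZ replicate 1 (0.72) or IZ replicate 3 (0.55), and with RNA integrity as a covariate (0.51, adjusted p = 0.147). The difference between these conditions, which differ in age and time, was not tested.

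PSMD10 (gankyrin), a chaperone that holds ATPases while the 19S base is built, was the member called most often. It was called higher in 7 of the 8 comparisons of a zone with Sham, with log2 fold changes of 0.44 to 0.83. It had 9.96, 10.5 and 10.6 CPM in Old Late IZ and 9.11, 8.49 and 7.97 CPM in Old Late BZ, against 7.09, 5.80 and 5.96 CPM in Sham (0.72 ± 0.18, adjusted p = 0.00123 for IZ). It had 12.5, 12.1 and 14.1 CPM in Old Early IZ and 10.4, 12.1 and 13.9 CPM in Old Early BZ, against 7.82, 6.30 and 7.76 CPM in Sham (0.82 ± 0.17, adjusted p = 0.000639 for IZ). It had 11.4, 12.6 and 12.5 CPM in Young Early IZ and 8.57, 10.7 and 10.9 CPM in Young Early BZ, against 7.70, 6.88 and 5.85 CPM in Sham (0.83 ± 0.18, adjusted p = 0.00116 for IZ). In these 3 conditions no library of either zone overlapped Sham, and the 3 IZ calls held under all 14 alternatives. Young Early BZ was the comparison without a call (0.56, adjusted p = 0.1), also without BZ replicate 2 (0.51, adjusted p = 0.109).

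In Young Late hearts PSMD10 was called in both zones. It had 9.60, 7.85 and 9.76 CPM in Young Late IZ and 10.7, 10.7 and 7.65 CPM in Young Late BZ, against 7.64, 4.93 and 6.38 CPM in Sham, with no overlap (0.50, adjusted p = 0.0373 for IZ, and 0.59, adjusted p = 0.029 for BZ). The IZ call was lost without IZ replicate 1 (0.40), IZ replicate 3 (0.45), Sham replicate 2 (0.37) or Sham replicate 3 (0.50), without the count filter (adjusted p = 0.0648) and without mitochondrially encoded genes (adjusted p = 0.062). Mean CPM of PSMD10 in IZ was 1.26 times that in Sham within batch 2 and 1.95 times within batch 1. The BZ calls of PSMD10 were lost in Young Late hearts without BZ replicate 1 (0.51), BZ replicate 2 (0.52), Sham replicate 2 (0.46) or Sham replicate 3 (0.59), and in Old Late hearts without BZ replicate 1, 2 or 3 (0.39, 0.44 and 0.48) or Sham replicate 2 or 3 (0.38 and 0.40). The Old Late BZ call (0.44, adjusted p = 0.048) was also lost without the count filter (adjusted p = 0.0861), with RNA integrity as a covariate (0.0981) and in edgeR's legacy fit (0.0515). In a limma-voom fit that took the pig as a random block, 3 of the 7 PSMD10 calls were lost, those in Young Late IZ (adjusted p = 0.0937), Young Late BZ (0.0905) and Old Late BZ (0.0583). The Old Early BZ call (0.73, adjusted p = 0.00341) held under all alternatives. Per kilobase of exon, PSMD10 had a median of 1.68 CPM over all libraries against 118.6 CPM for PSMB7, so it is among the scarcer members. The other base chaperones were mostly not called. PSMD5 was called in no zone (0.88, adjusted p = 0.0849 in Young Early IZ), and PSMD9 was called lower in Young Early IZ (-0.52, adjusted p = 0.0228). The call of PSMD9 was lost without Sham replicate 1 (-0.53), Sham replicate 3 (-0.38), IZ replicate 1 (-0.44) or IZ replicate 3 (-0.52), and with RNA integrity as a covariate (-0.44, adjusted p = 0.069).

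PSME4 (PA200), a nuclear activator that directs the core to acetylated histones, was called lower in 5 of the 8 comparisons, with a log2 fold change above 0 in 1 of them. It had 43.7, 59.3 and 43.5 CPM in Old Early IZ and 46.6, 54.7 and 56.4 CPM in Old Early BZ, against 69.5, 79.5 and 78.2 CPM in Sham. Neither zone overlapped Sham, and the IZ log2 fold change of -0.63 ± 0.16 (adjusted p = 0.00339) held under all alternatives. The BZ value of -0.53 (adjusted p = 0.0197) was lost without Sham replicate 2 (-0.49), Sham replicate 3 (-0.50) or BZ replicate 1 (-0.45). It had 45.5, 55.1 and 48.6 CPM in Old Late IZ and 47.9, 56.8 and 54.2 CPM in Old Late BZ, against 72.2, 69.8 and 75.7 CPM in Sham, again with no overlap. The log2 fold changes were -0.55 ± 0.16 in IZ (adjusted p = 0.00653) and -0.45 in BZ (adjusted p = 0.0266). The IZ call was lost without IZ replicate 1 (-0.40) or IZ replicate 3 (-0.46), and with RNA integrity as a covariate (-0.38, adjusted p = 0.063), which was 7.1 to 7.6 in Old Late IZ and 7.8 to 8.4 in Old Late Sham libraries. The BZ call was lost without BZ replicate 1 (-0.39), Sham replicate 1 (-0.46) or Sham replicate 3 (-0.42), without mitochondrially encoded genes (-0.40, adjusted p = 0.0573) and with RNA integrity as a covariate (-0.27, adjusted p = 0.238).

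In Young hearts PSME4 was called in 1 of 4 comparisons, Young Late IZ. It had 46.1, 49.7 and 53.2 CPM in Young Late IZ, against 50.2, 81.9 and 72.6 CPM in Sham, which overlapped (-0.46, adjusted p = 0.0343). That call was lost without IZ replicate 1 (-0.46), IZ replicate 2 (-0.45), Sham replicate 2 (-0.30) or Sham replicate 3 (-0.40), without the count filter (adjusted p = 0.069) and in a limma-voom fit that took the pig as a random block (-0.42, adjusted p = 0.0543). In Young Late BZ it had 46.5, 48.2 and 56.4 CPM, which overlapped the same Sham libraries (-0.43, adjusted p = 0.0705). In Young Early BZ it had 60.2, 66.5 and 82.1 CPM, also with overlap (0.11, adjusted p = 0.749), and in Young Early IZ 55.7, 52.6 and 65.9 CPM (-0.15, adjusted p = 0.519), against 63.7, 69.4 and 60.0 CPM in Sham. PSME3, the nuclear PA28 gamma, was called in Old Early IZ (0.44, adjusted p = 0.0221), and lost without Sham replicate 1 (0.41), Sham replicate 3 (0.45), IZ replicate 1 (0.39) or IZ replicate 3 (0.40), and with RNA integrity as a covariate (0.37, adjusted p = 0.0717).

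**Figure D5:**
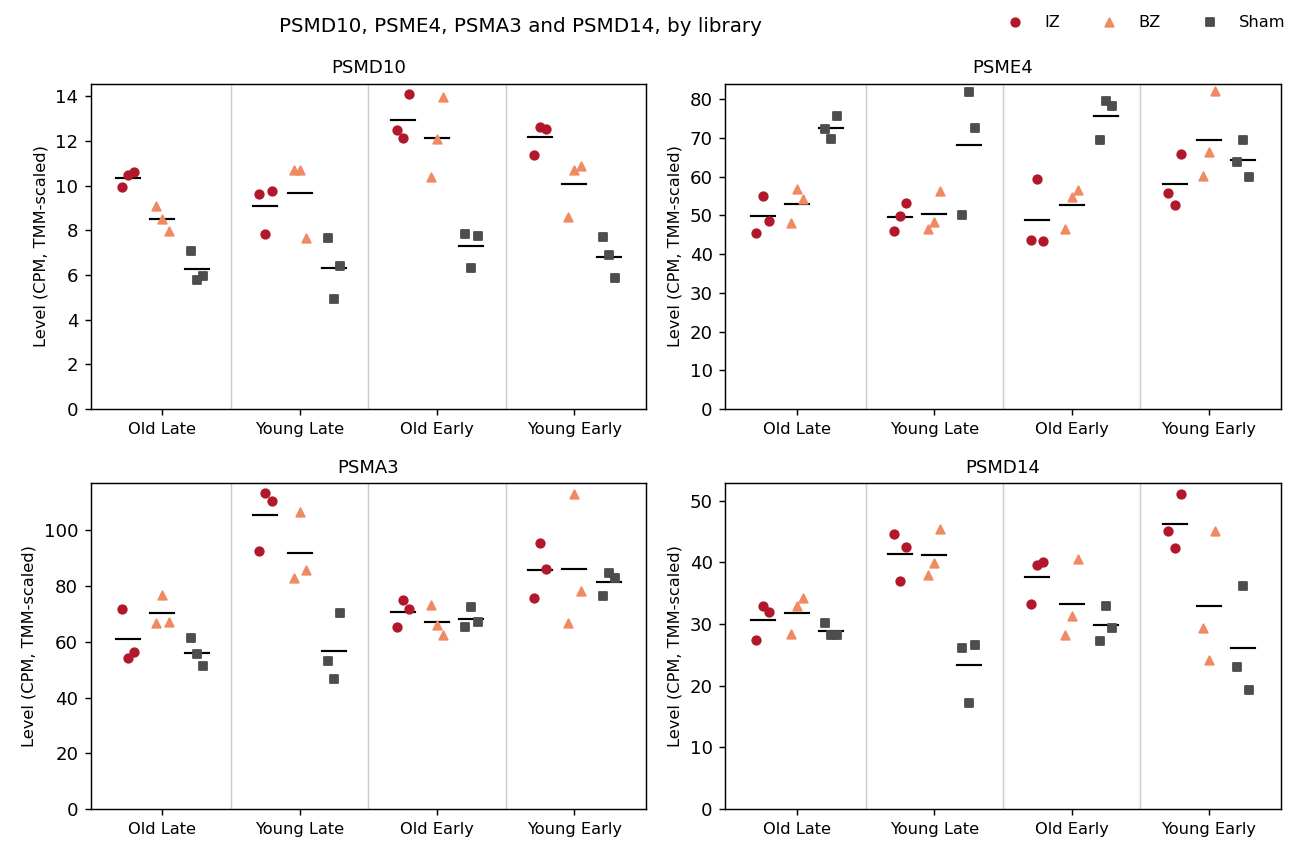
Level in TMM-scaled CPM (y axis) of PSMD10, PSME4, PSMA3 and PSMD14 in each of the 36 libraries, by age and time (x axis), with IZ, BZ and Sham as symbols and group means as bars. PSMD10 in Old Early IZ spans 12.1 to 14.1 CPM against 6.30 to 7.82 CPM in Sham, and PSME4 in Old Late IZ spans 45.5 to 55.1 CPM against 69.8 to 75.7 CPM in Sham.

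The zones of the same hearts differed little. In the fit with the pig as a block, PSMD14 was the only member called between IZ and BZ, in Young Early hearts (0.53, adjusted p = 0.0464), beside 10.7% of all genes (4.03% higher). This call was lost without IZ replicate 1 (0.50) or IZ replicate 2 (0.40), each left out with its pair, which for replicate 2 is the BZ library that stands apart, without the count filter (0.56) and without the block (0.49). In Old Late hearts edgeR's quasi-likelihood test called 0 members, beside 2.05% of all genes, and DESeq2 called 0 members. An unadjusted edgeR p under 0.05 was seen for 8 of 39 members, beside 2956 of 14386 genes. Of all genes, 295 were called there, but 0 without any 1 IZ replicate and its pair, and 0 where Old Late BZ replicate 3 was given the pig of its other label. There 4 of 39 members were higher in IZ than in BZ, with a median of -0.24, against -0.01 over all genes. In Young Late and Old Early hearts edgeR called 0 members and 0.0% of all genes, and DESeq2 called 0 members. There 2 and 1 members had an unadjusted edgeR p under 0.05, beside 1434 and 928 of 14386 genes. The Young Late pairs of replicates 1 and 3 each span preparation batches 1 and 2. Deviations within the Young Late pairs correlated at -0.201, -0.0389 and -0.0531.

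Whether the response to infarction differed with age was tested as the IZ against Sham difference in Old pigs minus that in Young pigs. At 1 week edgeR's quasi-likelihood test called 0 of 39 members, beside 3.67% of all genes, and DESeq2 and limma-voom called 0 members. Without Young Late Sham replicate 3 edgeR called 1 member. An unadjusted edgeR p under 0.05 was seen for 8 of 39 members, beside 2997 of 14537 genes. The median difference of the members was -0.46, against -0.04 over all genes, and PSMD10 was the only member with a positive one (0.22 ± 0.25). The lowest adjusted p were those of PSMA3 (-0.78 ± 0.24, adjusted p = 0.0614) and PSMC2, a base ATPase (-0.52 ± 0.18, adjusted p = 0.0887). PSMB9 differed by -1.29 ± 0.57 (adjusted p = 0.191) and PSMB8 by -0.91 (adjusted p = 0.401), so the larger Young Late changes of these genes were not shown to differ from the Old Late ones. At 1 day edgeR called 0 members, beside 0.915% of all genes, and DESeq2 and limma-voom called 0 members. An unadjusted edgeR p under 0.05 was seen for 4 of 39 members, beside 3826 of 14537 genes. The median difference of the members was 0.28, against 0.01 over all genes.

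Sham hearts were also compared between ages, though age and preparation batch cannot be told apart there. In Old Early against Young Early Sham hearts 8 of 39 members were called, all lower (20.5%), beside 31.1% of all genes (13.6% lower). PSMB4 had 99.7, 101.5 and 89.4 CPM in Old Early Sham, against 203.7, 187.7 and 189.3 CPM in Young Early Sham libraries, with no overlap (-1.0, adjusted p = 0.00464). PSMC4, a base ATPase, had 64.0, 65.9 and 58.6 CPM in Old Early Sham, against 147.3, 130.2 and 109.9 CPM in Young Early Sham (-1.04, adjusted p = 0.00724). PSMD9 was at -0.74 (adjusted p = 0.00392). These 3 held under all alternatives. Among these, the batch term could be estimated only from the Young Late libraries, so holding under it does not separate age from batch. PSMD3 (-0.70) was lost only with batch as a term, PSMB3 (-1.20), PSMD8 (-0.75) and PSME3 (-0.39) without any 1 of the 6 libraries, and PSMB2 (-0.48) without 4 of them (-0.47 to -0.43). These 4 were also lost with RNA integrity as a covariate (PSMB3 adjusted p = 0.183, PSMD8 0.14, PSME3 0.187 and PSMB2 0.188) and without the count filter. PSMB3, PSMD8 and PSME3 were lost with batch as a term too. Between 4 and 5 members were called without any 1 library. In Old Late against Young Late Sham hearts PSME1 (-0.71, adjusted p = 0.0179), PSMD3 (-0.59) and PSMB2 (-0.54) were called lower (7.69%), beside 10.9% of all genes (3.92% lower). The PSME1 call was lost without Young Late Sham replicate 1 (-0.61), Old Late Sham replicate 2 (-0.72) or Old Late Sham replicate 3 (-0.64). The count was 0 without any of these libraries, 1 without Old Late Sham replicate 1, and 0 with preparation batch as a term or RNA integrity as a covariate. In Young Late against Young Early Sham hearts PSMD9 (-0.57), PSMD6 (-0.53) and PSMA1 (-0.53) were called lower (7.69%), beside 8.74% of all genes (4.36% lower). PSMA1 and PSMD9 were lost in a limma-voom fit that took the pig as a random block (adjusted p = 0.0622 and 0.0556) and with RNA integrity as a covariate (0.0512 and 0.0882). Both were also lost with preparation batch as a term, and PSMA1 without the count filter and without mitochondrially encoded genes. The count was 0 without Young Late Sham replicate 2. Of the Young Early Sham libraries, leaving out replicate 3 gave 0, and leaving out replicate 1 or 2 gave 1. In Old Late against Old Early Sham hearts edgeR called 0 members, beside 0.0275% of all genes, and DESeq2 and limma-voom called 0 members. There 3 of 39 members had an unadjusted edgeR p under 0.05, beside 1399 of 14537 genes.

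Genes around the proteasome were counted from lists. Of 19 tested assembly factors, regulators and shuttles, 8 were called lower (42.1%, beside 24% of all genes) and 0 higher in Old Late IZ, and 3 higher (15.8%, beside 17.2%) and 1 lower in Young Late IZ. NFE2L1, a transcription factor of proteasome genes, had 175.4, 229.7 and 165.1 CPM in Old Late IZ, against 369.0, 340.7 and 324.7 CPM in Sham, with no overlap (-0.86 ± 0.15, adjusted p = 3.75e-05). PSMF1, an inhibitor of the core in vitro, was also lower there (-0.69, adjusted p = 0.00512). POMP, the chaperone of core assembly, had 101.7, 97.6 and 89.6 CPM in Young Late IZ, against 61.3, 49.3 and 58.8 CPM in Sham (0.77 ± 0.23, adjusted p = 0.0115), and was at 0.02 in Old Late IZ (adjusted p = 0.955). Of 7 muscle ubiquitin ligases, which mark contractile proteins, 6 were lower in Old Late IZ (85.7%, beside 24% of all genes) and 2 in Young Late IZ (28.6%, beside 13%), among them FBXO32 (-2.39 in Old Late IZ and -1.97 in Young Late IZ). TRIM63 was at -1.95 in Old Late IZ and was not called in Young Late IZ (-0.42, adjusted p = 0.209).

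Of 12 tested genes of MHC class I peptide loading and its regulators, 8 were called higher in Young Late IZ (66.7%, beside 17.2% of all genes), 3 in Old Late IZ (25%, beside 25.1%) and 4 each in Old Early and Young Early IZ (33.3%, beside 19.5% and 15.2%). TAP1, the peptide transporter, had 19, 84.8 and 65.9 CPM in Young Late IZ, against 13.6, 21.3 and 20.0 CPM in Sham (1.63 ± 0.45, adjusted p = 0.00672), with IZ replicate 1 inside the Sham range, as it was lowest for PSMB9 and PSMB10. TAP1 was at 0.18 in Old Late IZ (adjusted p = 0.756). IRF1, a factor that turns on PSMB9, was called in Young Late IZ (1.72 ± 0.33, adjusted p = 0.000272), Old Late IZ (0.87, adjusted p = 0.0254) and Old Early IZ (0.89, adjusted p = 0.0318). NLRC5, a regulator of MHC class I genes, was called in neither Young Late nor Old Late IZ. Of 28 interferon-stimulated genes 7 were called higher in Old Late IZ (25%, the same share as the 25.1% of all genes), and 12 in IZ of Young Late hearts (42.9%, beside 17.2%). In Old Early IZ 16 were lower (57.1%, beside 14.8%) and 1 higher, where PSMB8, PSMB9 and PSMB10 were not called. In Young Early IZ 1 was higher.

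Markers of cell types also differed between IZ and Sham. Of all genes, 25.1% were called higher and 24% lower in Old Late IZ, and 17.2% and 13% in Young Late IZ. In every Late IZ library the 17 macrophage markers lay above Sham, and 16 were called at each age, with summed levels of 2703.5 to 3061.7 CPM in Young Late IZ against 890.4 to 1044.3 CPM in Sham, and 2215.6 to 3187.4 CPM in Old Late IZ against 702.9 to 826.3 CPM in Sham. Of 13 tested lymphocyte markers 8 were higher in Old Late IZ and 3 in Young Late IZ. Their sums were 75.5 to 118.4 CPM in Old Late IZ against 36.7 to 52.3 CPM in Sham, and 63.9 to 78.2 CPM in Young Late IZ against 54.8 to 67.0 CPM in Sham, where CD3D was at 0. All 4 tested neutrophil markers were higher in Old Late IZ and 3 in Young Late IZ, with sums of 18.3 to 27.4 CPM in Old Late IZ against 0.885 to 1.38 CPM in Sham, and 9.47 to 18.9 CPM in Young Late IZ against 1.03 to 2.15 CPM in Sham. Of 5 dendritic cell markers 5 were higher in Old Late IZ and 0 in Young Late IZ, where XCR1 was at 0 in IZ and Sham, with sums of 3.65 to 5.45 CPM in Old Late IZ against 0.442 to 1.05 CPM in Sham, and 2.10 to 3.25 CPM in Young Late IZ against 0.650 to 0.824 CPM in Sham. Cardiomyocyte markers, of which 8 were analysed and none was at 0 in any group, were lower in 7 of 8 in Old Late IZ and in 4 in Young Late IZ, with sums of 22939 to 35371 CPM in Old Late IZ against 84118 to 94814 CPM in Sham, and 60038 to 81686 CPM in Young Late IZ against 80043 to 118180 CPM in Sham. Of 9 tested fibroblast markers 9 were higher in Old Late IZ and 8 in Young Late IZ. In Early IZ 7 of them were higher in Old and 5 in Young hearts (77.8% and 55.6%, beside 19.5% and 15.2% of all genes). In Early IZ 6 of 8 cardiomyocyte markers were lower at each age (75%, beside 14.8% of all genes in Old and 12% in Young). The part of these cells in the levels of PSMB8, PSMB9, PSMB10, PSMD10 and PSME4 was not tested. In bulk tissue, fewer cells of a type and less RNA per cell cannot be told apart.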

How the data were processed

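Raw gene counts were deposited as 1 table of 36 libraries, which the authors made from TruSeq stranded polyA libraries, per the labels' protocols. Per the submitters' processing notes the tools were bcl2fastq 2.19.0.316, Trimmomatic 0.36, STAR and featureCounts of Subread 1.5.1. The genome build, annotation and strand setting are not given in the sources used here. Gene identifiers were matched to symbols through a reference name table, which gave 14857 of them a symbol.

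Genes were kept by filterByExpr (minimum count 10) and scaled by TMM. edgeR 4.0.16 (R 4.3.3) fitted 1 model of 12 group means with a robust quasi-likelihood test, adjusted by Benjamini-Hochberg over 14537 genes at 0.05. IZ and BZ were compared in a 24-library model with the pig as a block (14386 genes), the pairing being taken from the pig named in the labels. The deviations of IZ and BZ libraries of the same pig correlated at -0.201 to 0.672. Labels disagree on the pig of Old Late BZ replicate 3, and under the other reading, as under the first, 0 members were called there. Ratios were compared by exact permutation (Python 3.11.15). The planned ratios to PSMB5 and PSMB6 could not be made, so 3 ratio tests were adjusted together. Alternatives used DESeq2 1.42.0, limma 3.58.1 voom, other scalings, no filter, batch or RNA integrity as terms, and single libraries left out. No replicates agreed within sampling noise (lowest chi-square per degree of freedom 10.35). The labels name separate pigs as replicates. With 3 against 3 libraries, an exact test alone cannot go below 0.1.

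The members and lists were chosen with earlier results of these data known. Text genes follow a rule: the immunoproteasome, PA28 and PSMB7 genes throughout, the 3 largest called rises and falls per comparison, members standing apart in their role, and the named regulators. PSMC2, PSMC5, PSMD5 and PSMD6 were added after their values were seen.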

Additional observations from a re-analysis of the deposited data

Results flagged for a closer look

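In Late hearts PSMC2, an ATPase of the 19S base, and PSMD7, the lid partner of PSMD14, had fold changes of opposite sign in the 2 ages, and every IZ library lay outside the Sham range, below it in Old and above it in Young hearts. PSMC2 had 83.1, 74.9 and 69.6 CPM in Old Late IZ, against 93.4, 88.1 and 87.7 CPM in Sham, a log2 fold change of -0.24. It had 107.1, 112.8 and 112.6 CPM in Young Late IZ, against 92.3, 87.1 and 95.6 CPM in Sham, a log2 fold change of 0.27. PSMD7 had 39.4, 38 and 31.6 CPM in Old Late IZ, against 47.7, 44.4 and 46.5 CPM in Sham (-0.35). It had 46.2, 44.4 and 45.9 CPM in Young Late IZ, against 38.6, 21.5 and 44.1 CPM in Sham (0.38). Here the lowest IZ library, at 44.4 CPM, was barely above the highest Sham library, at 44.1 CPM. The difference between the ages itself was -0.52 ± 0.18 for PSMC2 (edgeR quasi-likelihood adjusted p = 0.0887) and -0.73 for PSMD7 (adjusted p = 0.268), and neither was called. Neither gene was called in any comparison of a zone with Sham. Both were picked by searching all members for this pattern, and the share of all genes that show it was not counted.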

How the results depend on the processing

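Of the 56 member calls, 16 held under all 14 alternatives. The batch term was estimated from the Young Late libraries alone. In the other conditions all libraries share a batch, so the term could not adjust their zone against Sham comparisons. Counts of members called moved as follows. With RNA integrity as a covariate they were 3 in Young Early IZ, 2 in Old Early IZ, 1 in Old Late IZ, 0 in Young Early BZ, 0 in Old Late BZ, 4 in Old Early against Young Early Sham, 0 in Old Late against Young Late Sham and 1 in Young Late against Young Early Sham. With no count filter they were 3 in Old Early IZ, 0 in Young Early BZ, 4 and 1 in the Old against Young Sham comparisons at the Early and Late time, and 0 in Young Early IZ against BZ. DESeq2's test gave 5 in Old Late BZ, 14, 5 and 6 in the 3 Sham comparisons with calls, and 4 in Young Early IZ against BZ. Young Early BZ had 1 with DESeq2 size factors and 0 with the pig as a random replicate block in limma-voom, a block that moved no other count by over 1.5 times and whose lost calls stand beside their results. Old Late against Young Late Sham had 0 with batch as a term. Without the replicate block, Young Early IZ against BZ had 0. With the other 20S subunits in place of PSMB7, the PSMB10 ratio differed by 0.33 between IZ and Sham (adjusted p = 0.241) and by 0.14 between IZ and BZ (adjusted p = 0.411). The cause was not tested.

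With 1 library left out, the counts ranged from 3 to 7 in Young Early IZ, 2 to 6 in Old Early IZ, 8 to 15 in Young Late IZ, 1 to 4 in Old Late IZ, 0 to 8 in Young Early BZ, 1 to 2 in Old Early BZ, 0 to 8 in Young Late BZ and 0 to 2 in Old Late BZ. They were 0 to 1 for the Late age difference, 4 to 5, 0 to 3 and 0 to 4 in the Old Early, Old Late and Young Late Sham comparisons, and 0 to 2 in Young Early IZ against BZ. The PSMB10 to PSMB7 ratio kept its side, at 0.40 to 0.59 for IZ against Sham and 0.23 to 0.38 for IZ against BZ.

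Uncalled values that changed sign were those of PSMB9 in Young Early IZ (0.053 with RNA integrity, -0.27 to 0.13 with 1 library left out), PSME1 in Old Early IZ (-0.13 to 0.038), Old Late IZ (-0.20 with RNA integrity, -0.056 to 0.18) and Old Early BZ (-0.054 to 0.32), and PSMB8 in the Early age difference (-0.058 with RNA integrity). In Young Early BZ, where the lowest value is that without BZ replicate 2, the ranges were -0.60 to 0.89 for PSMB10, -0.10 to 1.29 for PSMB8, -0.42 to 0.56 for PSMB9, -0.11 to 0.16 for PSME1 and -0.46 to 0.58 for PSME2. Among values of single genes 1215 stayed on their side, 222 lost a call, 2 gained one and 16 changed sign. With 3 libraries a group and the spread between pigs, what can be called is limited. PSMB9 and PSMD10 had low counts, down to 42 and 37 in a library, and whether these changed their calls was not tested.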
